A study of Bos taurus with 8 samples.

Results

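Cell cycle, replication and mitotic genes were described in bovine blastocysts from cultures with and without AAPH, a source of peroxyl radicals. The genes were chosen by symbol alone, from the platform's annotation: the A, B, D and E cyclins, the cyclin-dependent kinases CDK1 to CDK9, the CDC genes, MCM2 to MCM9, and the Aurora, Polo-like, BUB, kinesin (KIF) and centromere protein (CENP) genes. They comprised 105 of 15227 named genes on the array, read by 154 of its 43794 probes. The symbols bring in genes whose known role lies outside division, among them transport kinesins, the GTPase CDC42, the splicing factors CDC40 and CDC5L and the mitochondrial protein AURKAIP1.

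Embryos came from slaughterhouse ovaries by in vitro maturation and fertilization, and all were cultured in synthetic oviductal fluid. The treated group received 0.01 mM AAPH from day 3 to day 5 and again from day 5 to day 7, and the control group received none. Both groups were collected 196 hours after fertilization in pools of 10 blastocysts, with 4 pools per treatment. Each of 8 two-colour arrays carried amplified RNA of both treatments, 4 with AAPH RNA in Cy5 and 4 in Cy3. Arrays of opposite dye taken to share their extracts were averaged, which left 4 swap pairs. Each was read as 1 AAPH pool and 1 control pool of the same number. The labels do not say which arrays share extracts, so the pairs and pool numbers were inferred from these data. A ratio is the log2 of AAPH signal over control signal, given as the mean ± SD of these pairs. Because whole pools were measured, fewer cells of a type and less RNA per cell cannot be told apart.

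Cyclins bind and activate cyclin-dependent kinases, which drive entry into DNA synthesis and into mitosis. The MCM proteins form the helicase that is loaded at replication origins and opens the DNA ahead of the polymerases. Aurora and Polo-like kinases build the spindle, kinesins move chromosomes and spindle fibres, CENP proteins make up the centromere and kinetochore, and BUB proteins hold back anaphase until chromosomes are attached. In the blastocyst, trophectoderm and inner cell mass both divide while the embryo expands.

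Per array, AAPH RNA lit 17523 to 34748 probes above the level of the negative control spots, and control RNA 15600 to 35278. The lowest counts were in Cy5 on slides 78 and 79, whichever the treatment. They were 15600 and 18994 for control RNA (slide 78) and 17523 and 22907 for AAPH RNA (slide 79). On slide 26 the counts ran from 31214 to 35278. Swap pairs 1 and 2 lay on slide 26 and pairs 3 and 4 on slides 78 and 79. Differences of pools 1 and 2 from pools 3 and 4 thus cannot be told apart from differences between slides. The AAPH and control pool of a swap pair were also read on the same arrays. A pool that is high or low in both treatments thus cannot be told apart from a difference between arrays. Markers of the blastocyst lineages were measured: 10 of 10 trophectoderm, 5 of 7 inner cell mass and 6 of 7 hypoblast genes, with no kept probe named GATA6, SALL4 or LIN28A. Connective tissue markers had the highest median ratio of the 7 cell type lists, at 0.71 over 10 of 10 genes, and the pairs stood at 1.19, 0.95, 0.64 and 0.18. Of these genes 8 were higher and 0 lower by limma at an unadjusted p under 0.05, beside 7.73% and 7.32% of all named genes. Their summed log2 signal ran from 12.60 to 15.15 in AAPH pools and from 12.27 to 13.38 in control pools. Cumulus and granulosa markers, 8 of 8 measured with 3 higher at that threshold, ran from 10.31 to 11.35 in AAPH pools and from 10.18 to 10.39 in control pools. Most of them were dim: 1 of the 8 was above background on all 8 arrays in both treatments, beside 4 of the 10 connective tissue markers. The part of such cells in the results that follow was not tested.

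Of the 154 probes, 131 probes of 97 genes passed the filter on dim probes, which asked for signal above background in at least 8 of the 16 channel signals, whatever the treatment. The 8 genes without a kept probe were CCND1, CDC14A, KIF17, KIF1A, KIF24, KIF2B, KIF5A and KIF9. Signal was above background in all 16 channel signals for 80 of the 154 probes and in none for 7. The MCM, Aurora, Polo-like, BUB and CENP genes and the cyclin-dependent kinases each kept every annotated gene.

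No cell cycle gene passed the test in the main analysis. With limma, 0 of 131 member probes had an adjusted p under 0.05, as did 0 of 30957 kept probes (0% called). The smallest adjusted p was 0.18 among members and 0.145 among all probes. At an unadjusted p under 0.05 there were 25 member probes (19.1%, beside 13.6% of all kept probes), of which 7 were higher and 18 lower in AAPH RNA. As higher it took 5.34% of the member probes and 5.77% of all, and as lower 13.7% and 7.85%. Without swap pair 2 the lower share was 6.11% of the members beside 5.66% of all probes. It was 13.7% beside 9.33% without pair 1, 9.92% beside 5.4% without pair 3 and 9.92% beside 5.42% without pair 4. Among probes above background in all 16 channel signals it was 8.75% beside 8.2%. The absence of calls depended on the inferred pairing. With the other pairing of arrays within slides, 5 of 131 member probes and 1085 of 30957 kept probes had an adjusted p under 0.05 by limma. Those p-values are too small if the pairing used here is right.

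Each gene is represented below by its brightest kept probe. The median ratio was -0.01 over the 97 genes and 0.01 over all 12063 named genes with a kept probe. Below 0 lay 50 of the 97 genes (51.5%), beside 47.9% of all genes. The members ran from -0.40 for MCM7 to 0.54 for CENPF. In the swap pairs 1 to 4 the median was -0.03, -0.05, -0.03 and 0.01, so the set as a whole lay close to 0 in each. Of the 97 genes, 15 were lower and 11 higher in 4 of 4 swap pairs (15.5% and 11.3%), beside 9.52% and 12.4% of all genes. Control and AAPH pools had no overlap in signal for 3 of the 97 (KIF2C, KIF5C and MCM6), beside 1.91% of all genes. For every other member the ranges of the 2 treatments overlapped.

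**Figure D1:**
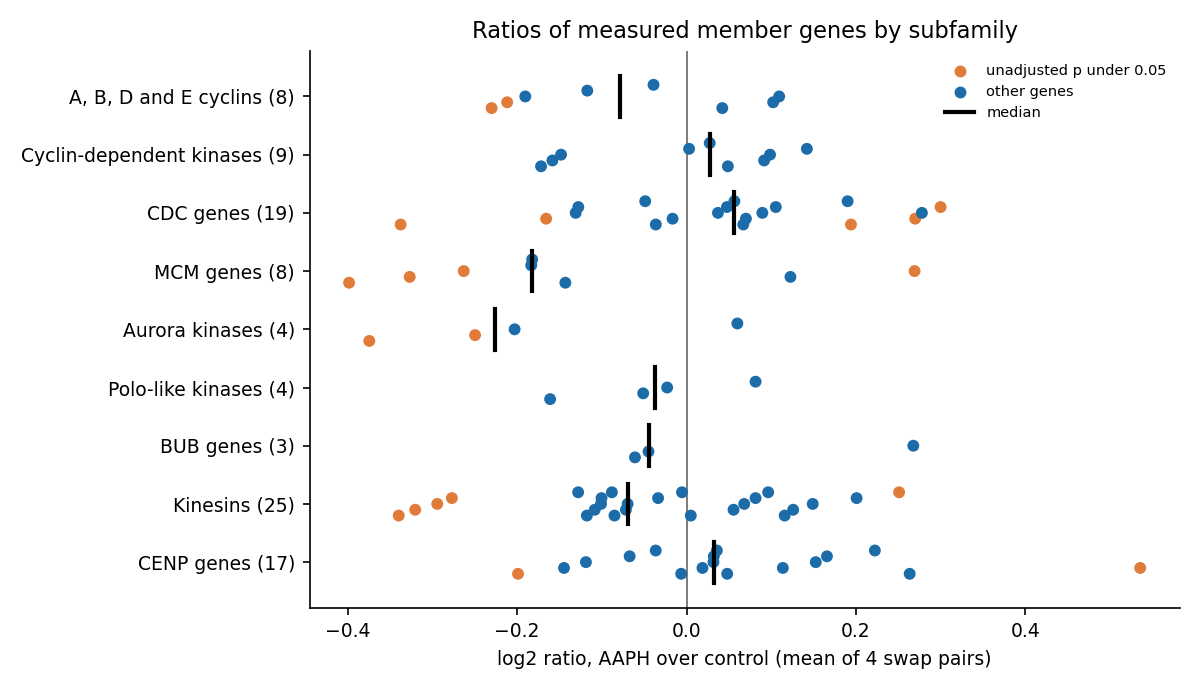
Mean log2 ratio of AAPH over control (x axis) for each of the 97 measured genes, by subfamily, with the number of genes in brackets and AURKAIP1 counted with the Aurora kinases. Black bars are medians, at -0.18 for the MCM genes and -0.23 for the Aurora genes, and orange points have an unadjusted p under 0.05.

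The MCM genes leaned below 0, with 6 of 8 below it and a median of -0.18. None passed the test, and at an unadjusted p under 0.05 there were 3 of 8 lower and 1 higher, beside 7.32% and 7.73% of all named genes. Within the replicative helicase itself, made of MCM2 to MCM7, 5 of 6 genes were below 0. The subfamily median in the 4 swap pairs was -0.11, -0.42, -0.12 and -0.21, with the lowest value in pair 2. It was -0.30 within slide 26, which held pairs 1 and 2, and -0.13 within slides 78 and 79, which held pairs 3 and 4.

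Log2 signal of MCM7, a helicase subunit, was 9.85, 9.54, 8.69 and 8.89 in control pools 1 to 4. In the AAPH pools of the same swap pairs it was 9.68, 8.84, 8.31 and 8.53. Every AAPH pool was below its control partner, while pools 3 and 4 read lower than pool 1 in both treatments. The ratio was -0.40 ± 0.22 (SD, n = 4) with a confidence interval of -0.63 to -0.17, and all 8 arrays were lower in AAPH RNA (limma, adjusted p = 0.218). Lower on all 8 arrays were 3 of the 97 genes (MCM7, KIF2C and CENPO), beside 2.01% of all genes.

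Its partner subunit MCM6 read 9.61, 9.57, 9.44 and 9.49 in control pools and 9.41, 9.01, 9.36 and 9.27 in AAPH pools. The highest AAPH pool lay just under the lowest control pool. MCM6 had a ratio of -0.26 ± 0.21, with the lowest pair at -0.56 in pair 2 (adjusted p = 0.311). For MCM3 control pools gave 10.11, 10.07, 9.37 and 9.30 and AAPH pools 10.02, 9.67, 9.15 and 9.28, a ratio of -0.18 ± 0.17. Both treatments of MCM3 were high in pools 1 and 2 and low in pools 3 and 4, and the AAPH pool was the lower one in each pair.

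The other helicase subunits scattered around 0 more widely. MCM5 read 8.23, 7.70, 7.30 and 7.59 in control pools and 8.31, 7.65, 6.88 and 7.24 in AAPH pools, for -0.18 ± 0.24, with AAPH the higher in pair 1. MCM2 read 9.64, 9.55, 9.43 and 9.57 in control pools and 9.52, 9.003, 9.74 and 9.37 in AAPH pools, for -0.14 ± 0.35. Pair 2 was its lowest and pair 3 the sole pair above 0, and its other kept probes were at -0.03 and 0.07. MCM4 read 11.79, 11.58, 10.92 and 11.20 in control pools and 11.72, 11.14, 11.57 and 11.56 in AAPH pools, for 0.12 ± 0.48. Slide 26 held its pairs below 0 and slides 78 and 79 those above.

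MCM8 and MCM9, related helicases that act in homologous recombination, had opposite signs. MCM9 signal was 9.85, 9.65, 8.94 and 9.77 in control pools and 9.45, 9.38, 8.78 and 9.30 in AAPH pools, with a ratio of -0.33 ± 0.14 (adjusted p = 0.211). MCM8 signal was 7.91, 8.25, 8.46 and 8.48 in control pools and 8.07, 8.37, 8.96 and 8.77 in AAPH pools, with a ratio of 0.27 ± 0.17 (adjusted p = 0.274). MCM9 was lower in AAPH RNA in every pair, with pool 3 low in both treatments. MCM8 was higher in AAPH RNA on all 8 arrays, one of 3 genes to be so (MCM8, CENPF and KIF14), beside 2.93% of all genes.

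Factors that load and fire origins were mixed. CDC45L (the current CDC45), which joins the helicase as it starts to move, had signal of 8.92, 8.67, 7.60 and 8.30 in control pools and 8.53, 8.24, 7.53 and 7.85 in AAPH pools. Its ratio of -0.34 ± 0.18 was small in pair 3, at -0.07, and between -0.39 and -0.46 in the others (adjusted p = 0.228). CDC6, a helicase loader, read 7.93, 8.13, 7.94 and 8.03 in control pools and 7.90, 8.15, 8.22 and 7.92 in AAPH pools, for 0.04 ± 0.17. CDC7, the kinase that fires origins, read 10.18, 10.28, 10.51 and 10.29 in control pools and 9.88, 10.78, 10.64 and 10.30 in AAPH pools, for 0.09 ± 0.33. Neither kept its sign across pairs, and their other kept probes stood at -0.09 and -0.09.

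**Figure D2:**
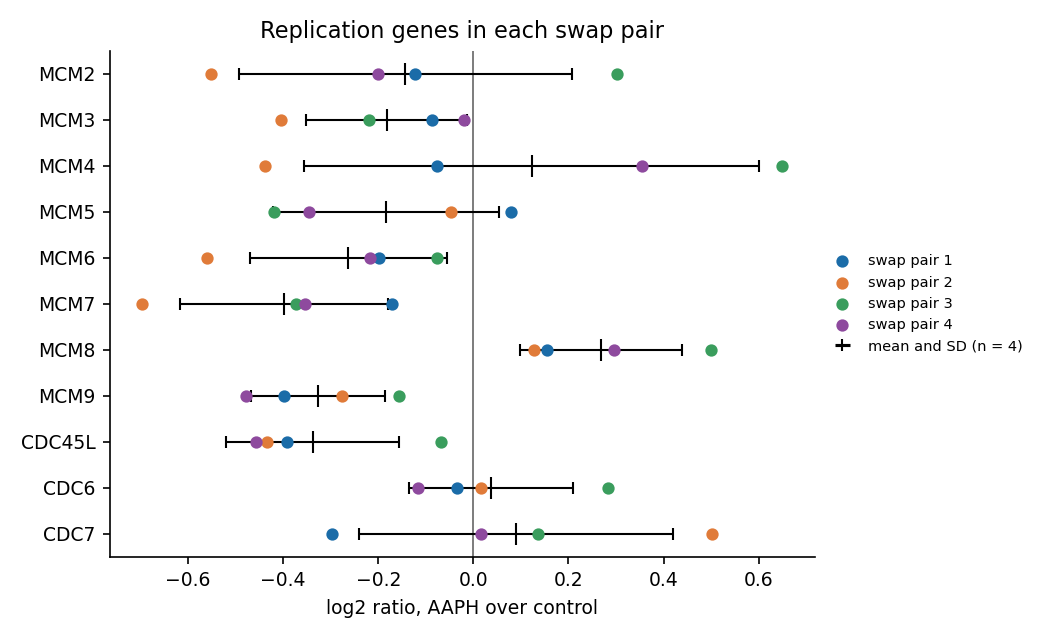
Log2 ratio of AAPH over control (x axis) of the 8 MCM genes, CDC45L, CDC6 and CDC7 in each swap pair (coloured points), with the mean and SD over 4 pairs in black. MCM3, MCM6, MCM7, MCM9 and CDC45L lie left of 0 in every pair, MCM8 lies right of 0 in every pair, and MCM4 runs from -0.44 to 0.65.

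Cyclins were measured for 8 of 9 genes, with a median of -0.08, and 5 were below 0. CCNB2, a mitotic cyclin, read 11.77, 11.76, 11.82 and 11.35 in control pools and 11.80, 11.53, 11.32 and 11.13 in AAPH pools. Pair 1 was level and pair 3 the lowest, for a ratio of -0.23 ± 0.21 (adjusted p = 0.365). CCNB1, the other main mitotic cyclin, read 13.47, 13.45, 13.78 and 13.91 in control pools and 13.46, 13.10, 13.61 and 13.96 in AAPH pools, for a ratio of -0.12 ± 0.18. Pool 4 was its highest in both treatments. CCNA2, needed in DNA synthesis and for entry into mitosis, read 12.68, 12.95, 12.08 and 12.10 in control pools and 12.54, 12.85, 12.42 and 12.41 in AAPH pools, for 0.10 ± 0.26. Pairs 1 and 2 of CCNA2 lay below 0 and pairs 3 and 4 above. The germ-cell cyclin CCNA1 read 7.00, 7.03, 7.35 and 7.60 in control pools and 6.81, 6.81, 7.31 and 7.21 in AAPH pools, below control in every pair at -0.21 ± 0.14 (adjusted p = 0.32).

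Cyclins E and D act before DNA synthesis. CCNE1 read 10.43, 10.26, 10.82 and 10.72 in control pools and 10.31, 10.28, 10.83 and 10.65 in AAPH pools, for -0.04 ± 0.07, and CCNE2 read 7.44, 7.82, 7.87 and 8.22 and 7.33, 8.09, 7.95 and 8.15, for 0.04 ± 0.17. Neither kept 1 sign over the pairs. CCND2, a cyclin that links growth signals to the cell cycle, read 12.09, 11.97, 11.26 and 10.81 in control pools and 12.08, 12.02, 11.21 and 10.06 in AAPH pools. Pools 3 and 4 were low in both treatments, and pair 4 at -0.75 set most of the ratio of -0.19 ± 0.38. CCND3 read 7.28, 7.39, 7.07 and 7.36 in control pools and 7.30, 7.17, 7.52 and 7.55 in AAPH pools, for 0.11 ± 0.28, and CCND1 was above background in 1 of 16 channel signals.

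Cyclin-dependent kinases had a median of 0.03 over 9 genes, or -0.004 with median centring of the arrays, and by limma 0 had an unadjusted p under 0.05 on their brightest probe. CDK1, which drives mitosis, read 9.95, 10.39, 11.04 and 10.18 in control pools and 9.84, 10.32, 11.42 and 10.33 in AAPH pools. Pool 3 was the highest and pool 1 the lowest in both treatments, and the ratio of 0.09 ± 0.22 differed in sign between pairs. CDK2, the partner of E and A cyclins, read 7.76, 7.78, 7.50 and 7.65 in control pools and 7.61, 7.66, 7.26 and 7.57 in AAPH pools. It was below control in 4 of 4 pairs at -0.15 ± 0.07, with an interval of -0.30 to 0.00, and its other probe was at -0.03. CDK4, a D cyclin partner, read 11.26, 11.38, 10.63 and 11.05 in control pools and 11.50, 11.12, 10.49 and 10.59 in AAPH pools, for -0.16 ± 0.29. Its pools 1 and 2 were above pools 3 and 4 in both treatments. CDK6, the other D cyclin partner, read 7.03, 7.05, 7.05 and 6.84 in control pools and 7.08, 7.00, 7.23 and 7.04 in AAPH pools, for 0.10 ± 0.12.

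Kinases of this family that act on transcription had 2 or 3 probes each. CDK7, which also activates the other kinases, read 11.39, 11.62, 11.38 and 11.35 in control pools and 11.40, 11.85, 11.68 and 11.38 in AAPH pools, above control in every pair at 0.14 ± 0.14, and its other probe at 0.08. CDK9, the kinase of transcript elongation, read 8.94, 8.52, 7.74 and 8.29 in control pools and 8.81, 8.32, 7.74 and 7.93 in AAPH pools, for -0.17 ± 0.15, and its other probe at -0.17. The probes of both genes thus had 1 sign. Those of CDK8, a Mediator kinase, did not: the brightest was at 0.00 ± 0.22 and dimmer ones at -0.23 ± 0.17 and 0.07 ± 0.20. CDK3 and CDK5 were at 0.03 ± 0.06 and 0.05 ± 0.05.

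CDC genes had a median of 0.06 over 19 genes, 12 of them above 0, with 3 higher and 2 lower at an unadjusted p under 0.05, beside 7.73% and 7.32% of all named genes. The median was -0.0043 with median centring of the arrays. CDC25B, a phosphatase that activates CDK1, read 8.38, 8.65, 8.40 and 8.46 in control pools and 8.51, 8.99, 8.66 and 8.52 in AAPH pools. Its ratio of 0.19 ± 0.13 was above 0 in 4 of 4 pairs (adjusted p = 0.338), and its other kept probes were at -0.01 and 0.13. CDC25A, which acts earlier in the cycle, read 7.45, 7.58, 6.96 and 7.22 in control pools and 7.57, 7.17, 7.01 and 6.93 in AAPH pools, for -0.13 ± 0.26. CDC20, which switches on the anaphase-promoting complex, read 9.07, 8.82, 8.86 and 8.96 in control pools and 8.93, 8.63, 8.91 and 8.73 in AAPH pools, for -0.13 ± 0.12. Pair 3 of CDC20 was the sole pair above 0. The complex's own subunits CDC16, CDC23, CDC26 and CDC27 had ratios of 0.05, 0.07, 0.28 and 0.07 by their brightest probes. All were above 0 in the mean and none above 0 in every pair, and the other kept probe of CDC27 was at -0.11.

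The remaining CDC genes, some with a known role outside division, included several of the smaller p-values of the subfamily. CDC42, a GTPase of cell polarity, read 9.10, 9.29, 8.42 and 8.48 in control pools and 9.34, 9.50, 8.89 and 8.63 in AAPH pools. Each AAPH pool exceeded its partner, for a ratio of 0.27 ± 0.14 (adjusted p = 0.255). CDC40 was at 0.30 ± 0.30 by its brightest probe and at 0.01 and 0.10 by the others. CDC37, a chaperone partner of kinases, read 8.65, 8.03, 7.60 and 8.16 in control pools and 8.40, 7.96, 7.51 and 7.91 in AAPH pools, for -0.17 ± 0.10. CDC14B, a phosphatase, read 7.62, 7.63, 7.79 and 8.05 in control pools and 7.75, 8.09, 7.82 and 8.20 in AAPH pools, for 0.19 ± 0.18. Both kept 1 sign in every pair. CDC34, a ubiquitin-conjugating enzyme, had ratios of 0.01, 0.40, 0.37 and -0.92 in pairs 1 to 4. CDC123, CDC20B, CDC73 and CDC5L lay between -0.05 and 0.11.

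Aurora genes had a median of -0.23 over 4 genes, with AURKA and AURKAIP1 lower at an unadjusted p under 0.05, beside 7.32% of all named genes. AURKA builds spindle poles, and its signal was 11.80, 12.15, 11.47 and 11.93 in control pools and 11.82, 11.88, 11.09 and 11.56 in AAPH pools. Pair 1 was level at 0.02 and pairs 2 to 4 lay between -0.27 and -0.38, for a mean of -0.25 ± 0.18 (adjusted p = 0.307). AURKB, the kinase of the chromosomal passenger complex, read 12.14, 12.29, 12.62 and 12.64 in control pools and 12.16, 12.62, 12.42 and 12.73 in AAPH pools. Its ratio was 0.06 ± 0.21 with an interval of -0.17 to 0.29, and other kept probes had a median of -0.08. AURKC, the germ-cell Aurora kinase, was at -0.20 ± 0.29. AURKAIP1, which binds Aurora A but works in mitochondria, read 9.18, 9.05, 8.65 and 9.47 in control pools and 9.04, 8.75, 8.39 and 8.68 in AAPH pools. It was below control in every pair at -0.37 ± 0.29, with -0.80 in pair 4, and other probes had a median of -0.17 (adjusted p = 0.276).

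Polo-like kinases lay near 0. PLK1, the main mitotic Polo-like kinase, read 6.99, 7.00, 7.17 and 6.94 in control pools and 7.09, 6.88, 6.99 and 6.93 in AAPH pools, for -0.05 ± 0.12. AAPH RNA gave signal above background on 5 arrays and control RNA on 6. PLK4, which starts centriole duplication, read 9.67, 9.66, 10.10 and 9.26 in control pools and 9.71, 9.71, 9.73 and 9.45 in AAPH pools, for -0.02 ± 0.24. The stress-responsive PLK2 read 10.32, 9.71, 10.25 and 9.54 in control pools and 10.24, 9.79, 10.38 and 9.72 in AAPH pools, for 0.08 ± 0.11. PLK3 read 8.32, 7.99, 8.00 and 7.75 in control pools and 8.47, 7.71, 7.78 and 7.46 in AAPH pools, for -0.16 ± 0.21. None of the 4 kept its sign in every pair.

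Of the checkpoint genes, BUB1, a kinetochore kinase, read 13.46, 13.58, 13.86 and 13.93 in control pools and 13.59, 13.49, 13.77 and 13.73 in AAPH pools, for -0.06 ± 0.14. BUB3, which brings the BUB kinases to kinetochores, read 14.70, 14.68, 14.85 and 14.89 in control pools and 14.77, 14.62, 14.71 and 14.84 in AAPH pools, for -0.04 ± 0.09 with an interval of -0.20 to 0.11. Both were above control in pair 1 and below it in the other 3 pairs. BUB1B, which inhibits the anaphase-promoting complex, read 10.13, 10.52, 10.30 and 10.07 in control pools and 9.96, 10.93, 10.68 and 10.52 in AAPH pools. It was the reverse, below control in pair 1 and above it in pairs 2 to 4, for a mean of 0.27 ± 0.29 (adjusted p = 0.384).

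Kinesins were measured for 25 of 31 genes, with a median of -0.07 and 15 below 0. The 12 mitotic kinesins had a median of -0.09 and the 13 others, mostly transport and cilium motors, -0.03. The mitotic median was -0.13, -0.16, 0.03 and 0.02 in pairs 1 to 4. It was thus below 0 in both pairs of slide 26, and it was 0.10 over slides 78 and 79.

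KIF2C, which depolymerizes microtubules at the kinetochore, was the one mitotic kinesin whose treatments did not overlap. Control pools read 13.17, 13.03, 13.34 and 13.12 and AAPH pools 12.91, 12.87, 12.98 and 12.63. All 8 arrays were lower in AAPH RNA, with a mean of -0.32 ± 0.14, a 1.25-fold difference (adjusted p = 0.216). KIF18B, which shortens astral microtubules, read 9.82, 9.72, 8.48 and 9.45 in control pools and 9.47, 9.45, 8.44 and 8.93 in AAPH pools. Pool 3 was the lowest in both treatments and had a ratio of -0.04, while the mean was -0.29 ± 0.20 (adjusted p = 0.273). KIF15, a motor that supports the bipolar spindle, read 10.34, 10.56, 11.23 and 11.26 in control pools and 10.12, 10.43, 10.54 and 11.19 in AAPH pools. It was below control in every pair, most in pair 3 at -0.69, for -0.28 ± 0.28 (adjusted p = 0.366).

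Other mitotic motors did not lean 1 way. KIF11, the main motor of spindle bipolarity, read 12.71, 12.97, 13.14 and 13.50 in control pools and 12.71, 13.14, 13.01 and 13.06 in AAPH pools, for -0.10 ± 0.26. KIF20A, needed for cytokinesis, read 13.01, 13.27, 13.14 and 13.47 in control pools and 12.92, 13.02, 12.96 and 13.48 in AAPH pools, for -0.13 ± 0.12. KIF11 was lower in pairs 3 and 4 and KIF20A in pairs 1 to 3. KIF23, also a cytokinesis motor, read 9.68, 10.03, 10.02 and 9.96 in control pools and 9.67, 9.83, 10.17 and 10.24 in AAPH pools, for 0.06 ± 0.21. KIF4A, a motor on chromosome arms, read 9.94, 10.12, 9.86 and 9.25 in control pools and 9.78, 9.87, 9.59 and 9.65 in AAPH pools, for -0.07 ± 0.32. It was below control in pairs 1 to 3 and at 0.40 in pair 4. KIF18A, which dampens chromosome movement, read 9.83, 10.45, 10.83 and 10.53 in control pools and 9.73, 10.57, 10.94 and 10.90 in AAPH pools, for 0.13 ± 0.19, and KIF20B was at 0.20 ± 0.51. Both had their highest ratio in pair 4.

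KIF14, a cytokinesis motor, read 7.11, 7.12, 7.26 and 7.31 in control pools and 7.14, 7.27, 7.54 and 7.45 in AAPH pools. It was above 0 on all 8 arrays at 0.15 ± 0.10, with its other probe at -0.03. KIF22, a chromosome motor above background on 6 arrays in each treatment, read 7.35, 7.38, 6.83 and 7.00 in control pools and 7.26, 7.21, 7.08 and 7.02 in AAPH pools, for 0.01 ± 0.18. KIF2A, which depolymerizes microtubules at spindle poles, exceeded background on 4 arrays for AAPH RNA and on 5 for control RNA. Its ratio ran from -0.52 in pair 2 to 0.57 in pair 3.

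Transport and cilium kinesins were mostly close to 0. KIF13A, a vesicle motor, read 7.28, 7.24, 6.77 and 7.06 in control pools and 6.88, 6.73, 6.67 and 6.71 in AAPH pools, for -0.34 ± 0.17 (adjusted p = 0.224). Its signal was dim, exceeding background on 3 arrays for AAPH RNA and on 5 for control RNA. KIF27 read 7.55, 7.40, 7.89 and 7.06 in control pools and 7.85, 7.82, 7.90 and 7.34 in AAPH pools, for 0.25 ± 0.17, and KIF1C read 7.71, 7.69, 7.52 and 7.61 and 7.78, 7.90, 7.68 and 7.61, for 0.12 ± 0.09. Both were above control in 4 of 4 pairs. KIF3A, a motor of cilium assembly, read 9.55, 9.69, 9.03 and 9.47 in control pools and 9.62, 9.71, 9.20 and 9.48 in AAPH pools, above control in every pair at 0.07 ± 0.07. Its partner KIF3B was at -0.10 ± 0.16. KIF5B and KIF5C, heavy chains of conventional kinesin, were at -0.03 ± 0.09 and -0.11 ± 0.08. The pools of KIF5C did not overlap, at 7.17, 7.23, 7.18 and 7.25 in control and 7.16, 7.12, 7.08 and 7.04 in AAPH RNA. The gap was narrow, with pair 1 at -0.01. KIF5C was dim, above background on 6 arrays for AAPH RNA and on 7 for control RNA. The others (KIF7, KIF13B, KIF16B, KIF19, KIF25 and KIF3C) lay between -0.09 and 0.10.

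**Figure D3:**
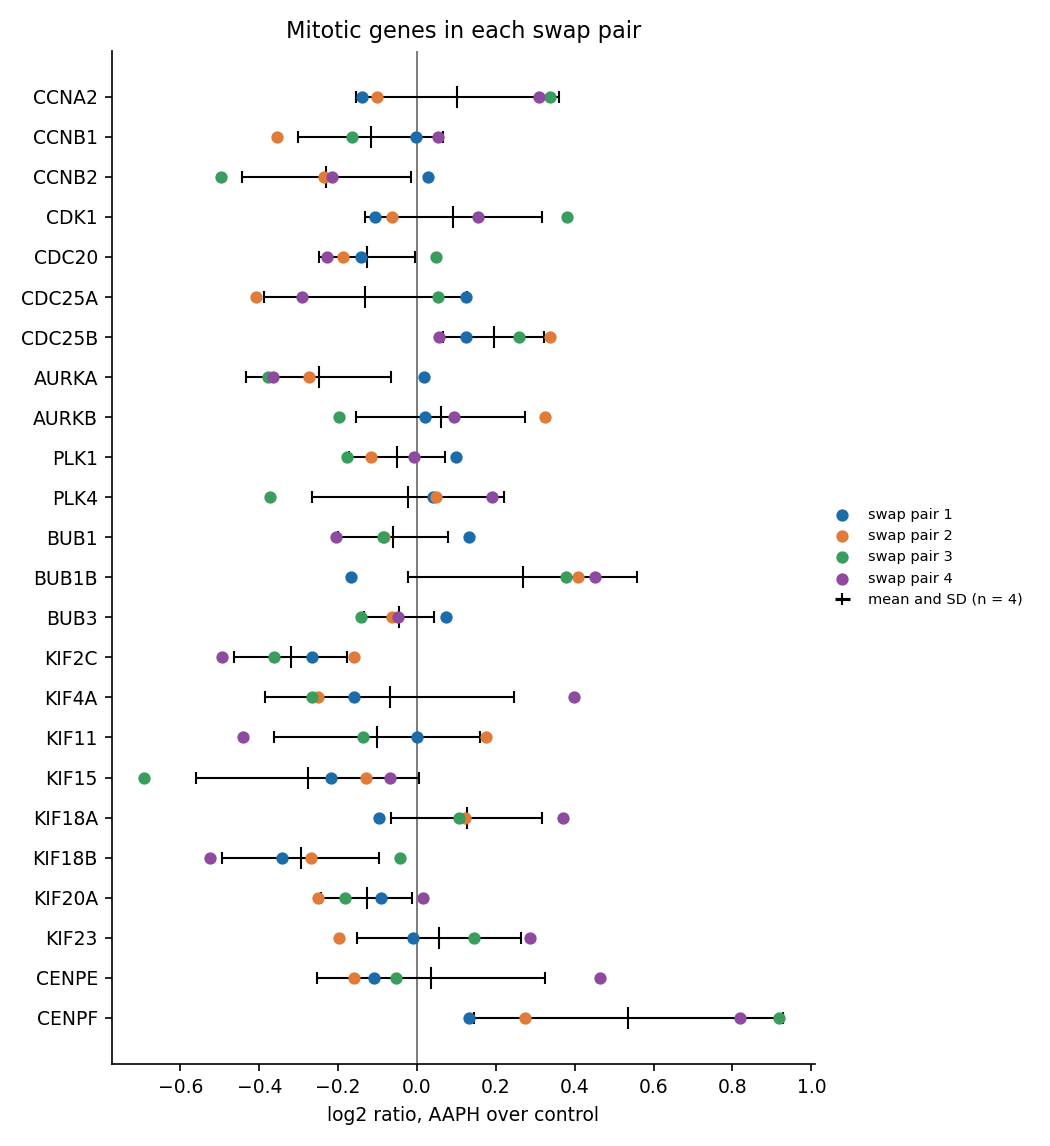
Log2 ratio of AAPH over control (x axis) of 24 cyclin, kinase, checkpoint, kinesin and centromere genes in each swap pair (coloured points), with the mean and SD over 4 pairs in black. KIF2C, KIF15 and KIF18B lie left of 0 in every pair and CENPF and CDC25B right of it, and the pairs of the other 19 genes fall on both sides of 0.

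CENP genes had a median of 0.03 over 17 genes, with 11 above 0, and the median was -0.02 with median centring of the arrays. CENPF, a kinetochore protein that builds up before mitosis, had the largest ratio of all members. Its signal was 10.94, 11.01, 11.22 and 11.43 in control pools and 11.07, 11.28, 12.14 and 12.25 in AAPH pools. Every AAPH pool exceeded its partner, slightly in pairs 1 and 2 and more in pairs 3 and 4. The mean was 0.54 ± 0.39 (SD, n = 4), a 1.45-fold difference with a log2 interval of 0.18 to 0.89, and 8 of 8 arrays were higher in AAPH RNA (adjusted p = 0.25). Within slide 26 the ratio was 0.20 and within slides 78 and 79 it was 0.87, and the difference between the slides was not tested. CENPE, a kinetochore motor, read 10.30, 10.32, 10.42 and 10.13 in control pools and 10.19, 10.16, 10.37 and 10.59 in AAPH pools, for 0.04 ± 0.29, and was above control in pair 4 alone.

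The inner centromere and kinetochore proteins varied without a common sign. CENPC1 (the current CENPC), which links centromeric chromatin to the kinetochore, read 8.66, 9.02, 8.81 and 8.29 in control pools and 8.76, 9.26, 8.83 and 8.98 in AAPH pools. It was above control in every pair at 0.26 ± 0.30, and reached 0.69 in pair 4. CENPO, above background on 6 arrays in each treatment, read 7.43, 7.42, 7.27 and 7.16 in control pools and 7.25, 7.17, 7.04 and 7.03 in AAPH pools. Its ratio was -0.20 ± 0.05 on this probe and 0.07 on the other. CENPT, which binds the outer kinetochore, was at -0.14 ± 0.18. CENPH, CENPK, CENPL, CENPP and CENPQ had ratios of 0.05, 0.02, -0.07, 0.03 and 0.15. CENPM was at -0.12 ± 0.34, CENPB and CENPV at -0.01 ± 0.13 and 0.03 ± 0.21, the centriole protein CENPJ at 0.22 ± 0.26 and CENPBD1 at -0.04 ± 0.11. None of these kept 1 sign in every pair.

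Probes of CENPN, a protein that reads centromeric chromatin, went opposite ways. The brightest read 0.17 ± 0.24, while another was lower in 4 of 4 pairs at -0.36 ± 0.11 (adjusted p = 0.18, the smallest of all members). The probes of CENPI had 1 sign in the mean, at 0.11 ± 0.13 for the brightest and 0.42 ± 0.30 for the other.

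**Figure D4:**
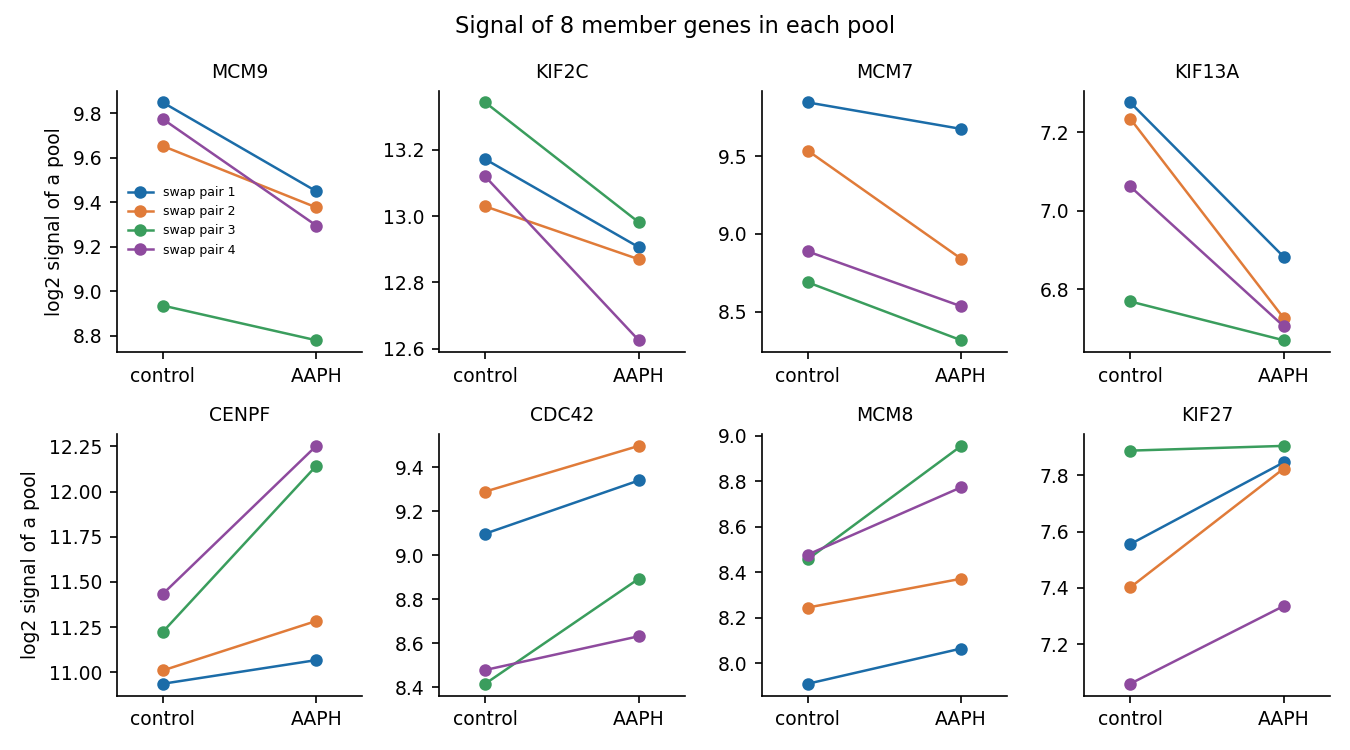
Log2 signal of each control and AAPH pool (y axis, a separate range for each gene, not starting at 0) for the 4 lower and 4 higher member genes of smallest p among those with 1 sign in all pairs. Lines join the pools of a swap pair, and for MCM7 the control pools span 8.69 to 9.85 while the pair differences run from -0.70 to -0.17.

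The spread between pools of 1 treatment and the size of the ratios are different measures, since a ratio is paired and averaged over 4 swap pairs. The SD of log2 signal between control pools had a median of 0.26 over the 97 genes and of 0.21 over all named genes. Between AAPH pools these medians were 0.25 and 0.21. The size of the mean ratio had a median of 0.12 over the 97 genes and 0.10 over all genes. The SD of the ratio over the 4 swap pairs, on which the test rests in part, had a median of 0.18 over the 97 genes and 0.18 over all genes. The SD between pools also holds any difference between slides and between arrays. The median signal of the MCM genes was 9.74, 9.56, 9.15 and 9.40 in control pools and 9.48, 9.01, 9.05 and 9.28 in AAPH pools. It was highest in control pool 1 and lower in the AAPH pool of every swap pair, with overlap between the treatments. For the kinesins it was 8.58, 9.12, 8.48 and 9.25 in control pools and 8.54, 8.97, 8.44 and 8.93 in AAPH pools. Pools 2 and 4 were above pools 1 and 3 in both treatments, which were read on the same arrays.

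Several probes per gene gave a check of the ratios within the same RNA. Of 25 member genes with 2 or more kept probes, 12 had all probes on 1 side of 0. Neither the share over all named genes nor that under random signs was computed, so this count gives no support to the signs. The spread between the probes of a gene had a median of 0.14, beside the median size of a ratio of 0.12. MCM6, MCM7, MCM8, MCM9, CDC45L, KIF2C, KIF18B, AURKA and CENPF had 1 kept probe each and no such check.

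**Figure D5:**
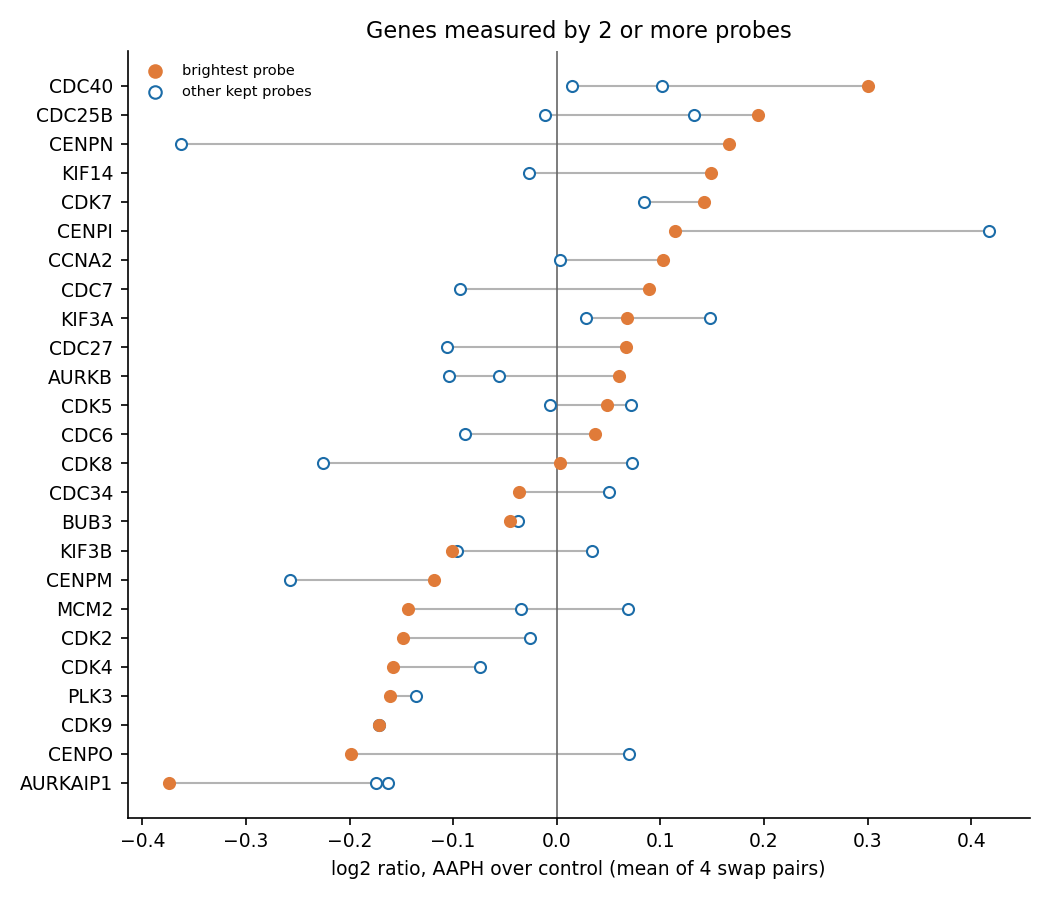
Mean log2 ratio of AAPH over control (x axis) of each kept probe of the 25 member genes with 2 or more probes. Orange points are the brightest probe and open points the others; CENPN runs from -0.36 to 0.17, while the probes of AURKAIP1, CDK9 and PLK3 all lie left of 0.

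Further genes of the same pathways, outside the symbols above, did not pass the test either. The shares of all named genes at an unadjusted p under 0.05 were 7.73% higher and 7.32% lower. The 7 measured of 8 inhibitors of cyclin-dependent kinases had a median of 0.10, with 3 higher and 1 lower at that threshold. CDKN1B, the inhibitor p27, read 7.39, 7.54, 7.70 and 7.45 in control pools and 7.56, 7.77, 8.02 and 7.84 in AAPH pools. It was above control in 4 of 4 pairs at 0.28 ± 0.10 (adjusted p = 0.217), and CDKN3, a phosphatase of these kinases, was at 0.24 ± 0.14.

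Origin and replication fork factors had a median of 0.05 over 28 genes measured of 39, with 2 higher and 3 lower. POLA1, the catalytic subunit of the polymerase that starts new strands, read 8.85, 8.76, 8.74 and 8.83 in control pools and 9.08, 8.90, 9.10 and 9.32 in AAPH pools, without overlap, for 0.31 ± 0.15 (adjusted p = 0.228). The nucleotide salvage enzyme TK1 was at -0.24 ± 0.18. RB and E2F factors had a median of -0.01 over 14 of 19 genes, with 1 higher and 2 lower. TFDP2, an E2F partner, was at -0.29 ± 0.19, and RBL2, which holds division genes silent in resting cells, at 0.42 ± 0.33. Neither passed the test.

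Checkpoint genes had a median of 0.03 over 17 of 18 genes, with 1 higher and 2 lower. RAD9A, part of the clamp that marks damaged DNA, was at -0.60 ± 0.41 and at -0.02 in pair 1, and the damage kinase ATM was at 0.21 ± 0.02. Kinetochore and spindle factors had a median of 0.05 over 23 of 26 genes, with 1 higher and 1 lower. MAD2L2 was at -0.60 ± 0.42, with -0.06 in pair 1 and -1.04 in pair 4, and NUSAP1, a spindle protein, was at 0.24 ± 0.17. Further subunits and partners of the anaphase-promoting complex had a median of -0.06 over 13 of 14 genes, with 0 higher and 1 lower by limma, ANAPC1 at -0.22 ± 0.18, and ANAPC10 next at 0.17 ± 0.20. Cohesin, condensin and chromosome structure genes had a median of 0.01 over 17 of 19 genes, with 1 higher and 1 lower, SMC3 at 0.19 ± 0.15 and PDS5A at -0.22 ± 0.13.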

How the data were processed

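Scanner files of 8 two-colour arrays held for each spot and dye the mean foreground and the median local background, deposited as linear intensity per the file headers. In each file 14 lines of column statistics were left out. A table of log2 ratios deposited by the authors, made with limma per the submitters' processing notes (version and settings not given in the sources used here), was an alternative. Its columns had medians of -0.0135, -0.00863, 0.0117, 0.00944, -0.0152, 0.00799, -0.0188 and -0.0197 from array 1 to array 8, correlated with the scanner ratios at 0.967 to 0.994 with slopes of 0.943 to 0.99 over bright probes, and so ran AAPH over control on a log2 scale. Its normalization is unknown.

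Background was corrected by normexp (offset 50), and arrays were normalized by loess within each one with control spots at weight 0 (R 4.3.3, limma 3.58.1). Aquantile scaling of these values gave the signal per pool, which compares pools for 1 gene, not genes. Above background means more than 3 median absolute deviations over the median of the negative controls. Those controls read 92.1 to 223 against a local background of 16 to 44, so ratios of dim probes are pulled towards 0. A probe was kept when above background in at least 8 of 16 channel signals, and a gene is its brightest kept probe.

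Arrays 1 and 3, 2 and 4, 7 and 5, and 8 and 6 were averaged as swap pairs 1 to 4. The labels do not give this pairing: it is the one within slides with the best correlation of deviations from the orientation mean. The pairs used had 0.153 to 0.571, with pair 3 the lowest, and the 12 other pairs -0.344 to 0.0461. Of those others, arrays 1 and 4, 2 and 3, 7 and 6, and 8 and 5 lay within slides, at -0.344 to -0.0087. The pairing was chosen by this correlation, so the gap is no separate check of it. Deviations from a mean also sum to 0, so a high correlation in 1 pair lowers others. Ratios were tested against 0 with lmFit and eBayes and Benjamini-Hochberg adjustment over all kept probes at a threshold of 0.05, and intervals are at 95%. Nothing in the labels ties the pools to separate fertilizations. The p-values and intervals rest on the spread of these 4 pairs, whose number limits the precision, and on that of all kept probes. The eBayes step draws the variance of each probe towards that of all kept probes, with 6.24 degrees of freedom against 3 from the pairs alone. The SDs given with the ratios thus do not yield the intervals directly.

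Symbols are those of the platform's annotation, which is old. RefSeq's table of assembly ARS-UCD2.0 holds 103 of the 105 as current symbols and the other 2 as synonyms. No coordinates are given, since the sources used here name no build for the probes. The members, lists and tests were chosen with earlier results of these data known. Any member could be named; values in each pool were given for a core list and for genes of smallest p, up to 12 per direction with 1 sign in all pairs and 2 per subfamily, and 2 genes of smallest p were named from each pathway list. The test was checked on simulated data in which the pairing used here was taken as true. It called 18.4% of changes of 0.5 log2, 77.1% of changes of 1 and 98% of changes of 2. Changes below 0.5, the size of most member ratios, were not simulated. Alternatives covered background, normalization, filter, pairing, slide, variance model, left-out pairs, the probe of a gene and, chosen after seeing the data, the negative controls as background.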

Additional observations from a re-analysis of the deposited data

Results flagged for a closer look

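A swap pair lay far from the other 3 in 5 of 72 results, where chance gives 3.6. Pair 4 stood apart for CCND2, at -0.753, and for KIF4A, at 0.399. Pair 1 stood apart for the checkpoint gene BUB1B, at -0.166, and for PLK3, at 0.15. Pair 3 stood apart for CDC45L, at -0.0676.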

How the results depend on the processing

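No member passed in the main analysis, with the authors' table, or in any fit that left out a pair. Probes were called under 3 alternatives. Requiring signal in all 16 channel signals gave 27 calls over all probes and 0 among members. The other pairing within slides gave 1085 calls, with 5 member probes (KIF18B, MCM7, CDC45L, MCM9 and CENPN, adjusted p of 0.0278 to 0.0418), and 8 single arrays with a dye term gave 935, with 6 (KIF2C, CENPF, MCM7, CDC45L, KIF13A and CENPN, adjusted p of 0.023 to 0.0434). Both treat arrays that share extracts under the main pairing as separate, so their p-values are too small if that pairing is right. Member probes that were higher at an unadjusted p under 0.05 then numbered 14 under each of these, against 7, and were 1 on slide 26 alone and 11 on slides 78 and 79 alone. Lower ones, 18 in the main analysis, numbered 7 with signal in all 16 channel signals, 7 on slide 26 alone and 10 on slides 78 and 79 alone. Leaving out 1 pair at a time gave 5 to 8 higher and 8 to 18 lower probes.

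The median over all members was -0.0478 with median centring within arrays and 0.034 with signal in all 16 channel signals. Median centring also moved the cyclins to -0.141 and the BUB genes to -0.17, and it turned the sign for the cyclin-dependent kinases (-0.004), the CDC genes (-0.0043) and the CENP genes (-0.0235). On slides 78 and 79 alone the kinesins were at 0.0301 and the mitotic kinesins at 0.103, and on slide 26 alone the other kinesins were at 0.0328 and the BUB genes at 0.024. Without 1 pair at a time, medians ran from -0.084 to -0.0157 for the cyclins, -0.0581 to -0.0092 for the kinesins, -0.0353 to 0.0356 for the other kinesins, -0.243 to -0.137 for the MCM genes and -0.324 to -0.144 for the Aurora genes. The cyclin median was nearest 0 without pair 4, those of the kinesins without pair 2 and of the Aurora genes without pair 3. The sign turned without pair 2 for the mitotic kinesins (0.0034), without pair 3 for the Polo-like kinases (0.0281) and the other kinesins, and without pair 4 for the CENP genes (-0.019). Of 59 named member genes, 38 kept 1 sign under all alternatives run, among them MCM3, MCM6, MCM7, MCM8, MCM9, CDC45L, KIF2C, KIF18B, AURKA and CENPF. MCM2, MCM4, MCM5, AURKB, CDC6, CDC7, CDK1, CCNA2, CENPE and KIF22 did not. Part of this was fixed in advance. A gene with 1 sign in every pair, as all those listed first but AURKA, cannot turn when pairs or slides are left out. Some of the 59 were named for that trait. The alternatives of pairing, filter, variance model and slide block also leave the ratio of a probe unchanged. Subtracting the negative controls as background, chosen after seeing the data, called 0 probes, left 7 higher and 15 lower members at an unadjusted p under 0.05 and put the MCM median at -0.234. Signal over background limits the dim genes, among them KIF13A, KIF2A and PLK1.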
